A study of Mus musculus with 21 samples.

Results

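Cells of the mouse line SMB21 received a virus with a short hairpin RNA (shRNA) that targets either Hdac2 or luciferase, and their RNA was sequenced. The comparison takes the 3 libraries labelled shHdac2 and the 3 labelled shLuc, 6 of the 21 samples of the series. SMB21 is a cultured line derived from a medulloblastoma, a brain tumour, of the sonic hedgehog (SHH) type. Luciferase is a firefly enzyme that mouse cells lack, so shLuc controls for the virus, the hairpin and the selection. All 6 cultures were grown in DMEM/F12 medium with B-27 and were selected with puromycin. The sources used here do not give the hairpin sequences, the number of hairpins per gene or the time after infection. The series also holds 3 libraries with a hairpin against Hdac1 (shHdac1) and 12 libraries from an inhibitor experiment, quisinostat (JNJ) against DMSO after 2 and 24 h.

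Hdac2 encodes histone deacetylase 2, a class I enzyme that removes acetyl groups from histone tails. HDAC1 and HDAC2 are close relatives that sit together in the SIN3, NuRD and CoREST complexes, which are recruited to genes by transcription factors. In SHH medulloblastoma, a tumour of the cerebellar granule neuron lineage, the hedgehog pathway drives GLI transcription factors, and acetylation of GLI1 and GLI2 is known to limit their activity until HDAC1 or HDAC2 removes it.

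The 6 libraries held 23094799 to 31426312 counted reads, and 3 reads in a library were worth 0.0933 to 0.126 CPM (counts scaled to a common library size). All 11 markers of the SHH granule lineage, Atoh1, Gli1 and Zic1 among them, were present at 1 CPM or more in at least 1 of the 6 libraries, with summed levels of 2656 to 3205 CPM in shLuc and 2432 to 2743 CPM in shHdac2. Of 11 microglia and macrophage markers 10 stayed under 1 CPM in every library (summed 1.36 to 3.32 CPM in shLuc, 1.58 to 1.94 CPM in shHdac2). The labels number the libraries of a group from 1 to 3. Numbers 1 and 2 were close to copies of each other in every shRNA group: the coefficient of variation between them beyond counting noise was 3.55% in shLuc and 6.93% in shHdac2, against 20.4 to 32.4% between either of them and number 3. They differed by more than sampling noise (chi-square per gene 3.84 in shLuc and 9.49 in shHdac2, where noise alone gives about 1), which does not show that they are separate cultures. They were counted as separate libraries because the labels list them so. The labels do not tell whether the numbered libraries are separate cultures, so the p-values rest on a spread between libraries that may be technical. Effects are therefore also given per number, in the order 1, 2 and 3, as the shHdac2 library minus the shLuc library with the same number in log2 CPM.

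The hairpin lowered its target in every library. Hdac2 stood at 309, 301 and 344 CPM in shLuc replicates 1, 2 and 3 and at 49.1, 48.1 and 53.8 CPM in shHdac2. The lowest control library was far above the highest knockdown library, and the 3 knockdown libraries lay close together. Hdac2 fell 6.32-fold, with group means of 318 ± 23.1 CPM in shLuc and 50.3 ± 3.08 CPM in shHdac2 (± SD, n = 3 in each; log2 -2.66, SE 0.09, adjusted p = 3.49e-06). Per number the log2 effect was -2.65, -2.64 and -2.67, so here number 3 gave the same size as the other numbers. None of the 4468 windows of 75 bases, the read length, in Hdac2 transcripts occurred in a transcript of another gene. With the hairpin against Hdac1, Hdac2 was not called (log2 0.01 against shLuc, adjusted p = 0.977).

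The other class I deacetylase genes did not pass the test. Hdac1, the closest relative of Hdac2, had 88.8, 94.8 and 101 CPM in shLuc and 99.2, 101 and 108 CPM in shHdac2 (log2 0.12, SE 0.08, adjusted p = 0.533; per number 0.16, 0.10 and 0.11), and the groups overlapped. For Hdac1, 29.3% of read-length windows are shared with other genes, so its level is less certain than that of Hdac2. Hdac3, the deacetylase of the NCoR complex, had 139 ± 4.71 and 132 ± 1.95 CPM (log2 -0.08, adjusted p = 0.623; per number -0.08, -0.02 and -0.14), and the libraries did not overlap although the difference was small. Hdac8, which deacetylates cohesin, had 19.5 ± 1.61 and 22.8 ± 1.71 CPM (log2 0.23, adjusted p = 0.353; per number 0.07, 0.25 and 0.35). In the list of 13 tested class II, class IV and sirtuin genes none was called, where 1.68% of all genes tested were. The median log2 change of the list was -0.01 (per number -0.05, 0.00 and 0.11), as it was for all genes tested (-0.01).

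**Figure D1:**
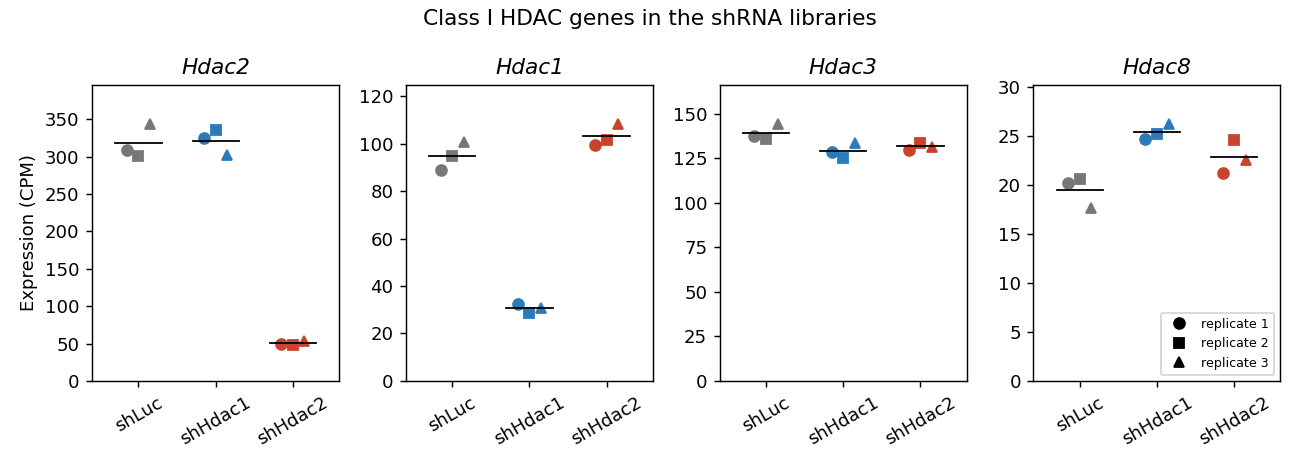
Expression of the 4 class I HDAC genes in CPM (y axis, from 0) in the 3 shLuc, 3 shHdac1 and 3 shHdac2 libraries (x axis); symbols mark the replicate number and lines the group mean. Hdac2 is low in all 3 shHdac2 libraries and in no shHdac1 library, while Hdac3 and Hdac8 differ little between the groups.

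Beyond Hdac2, few genes passed. Of 13612 genes tested, 89 were higher (0.654%) and 140 lower (1.03%) in shHdac2 than in shLuc at an adjusted p under 0.05, 1.68% in all. Of these, 25 and 27 changed at least 2-fold. At an unadjusted p under 0.05 there were 2158 genes (15.9%). All 229 called genes had the same sign in all 3 numbers and libraries that did not overlap between the groups. The same held for 42.2% and 21.2% of all genes tested, and a gene that passes the test is likely to meet both. The median size of the called changes was 0.78 on the log2 scale for genes that were higher and 0.69 for genes that were lower.

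The number of calls varied widely with the libraries used and with the fit. In 1 fit the counts of numbers 1 and 2 were summed to 1 library per group and number 3 was kept, which leaves 2 against 2. Hdac2 was then the only gene called (adjusted p = 0.0147), and 691 genes had an unadjusted p under 0.05. Leaving out shLuc replicate 1 or 2 left 18 and 12 calls, and leaving out shHdac2 replicate 1 or 2 left 13 and 12. Leaving out number 3 gave 1212 calls without the shLuc library and 91 without the shHdac2 library. The fit of the 6 libraries alone, without shHdac1, called 19 genes, and DESeq2 over the 9 libraries called 892. A fit with the replicate number as a block called 801 genes (382 higher, 419 lower), and a fit with number 3 as a batch term called 1424. Within numbers 1 and 2 alone 6052 genes were called, and number 3 alone, 1 library against 1, allows no test. All 229 calls kept their sign in every fit in which they were tested. Their libraries did not overlap between the groups, so refits of the same libraries left little room for a change of sign. Hdac2 was the only gene called in all 20 other fits.

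**Figure D2:**
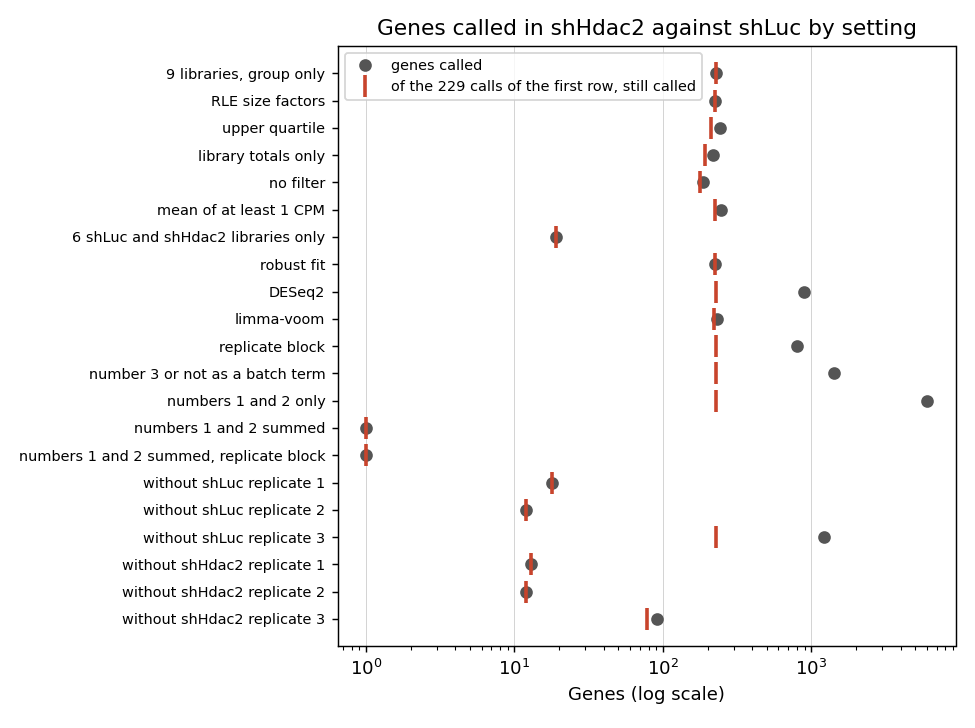
Genes called in shHdac2 against shLuc (x axis, log scale) in each fit (y axis); circles give all genes called and red bars how many of the 229 calls were among them. Fits that leave out number 1 or 2 from either group call 12 to 18 genes, and fits that use numbers 1 and 2 alone call 6052.

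A small set of genes besides Hdac2 stayed called whichever of the 6 libraries was left out. There were 10 such genes, 2 higher and 8 lower, 1 of them a row whose gene name has been turned into a date and is not named here. Rcn2, which encodes the calcium-binding protein reticulocalbin 2 of the endoplasmic reticulum (ER), stood at 131, 141 and 151 CPM in shLuc and at 55.3, 57 and 58.9 CPM in shHdac2. The libraries of each group lay close together and far from the other group. It fell 2.47-fold (log2 -1.30, SE 0.08, adjusted p = 0.000292; at most 0.0079 with any 1 library left out), with effects of -1.24, -1.31 and -1.36 in numbers 1, 2 and 3. Ssr2, for a subunit of the translocon-associated protein complex of the ER, had 236, 255 and 266 CPM in shLuc and 108, 117 and 109.8 CPM in shHdac2. It fell 2.26-fold (log2 -1.18, SE 0.09, adjusted p = 0.00138; at most 0.0186), and all 3 numbers gave a similar size (-1.13, -1.12 and -1.28).

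Gng5, a G protein gamma subunit gene, had 24.4, 24.2 and 31.8 CPM in shLuc and 7.93, 8.85 and 8.85 CPM in shHdac2. Number 3 of shLuc was the highest control, and the knockdown libraries were alike. The fall was 3.13-fold (log2 -1.65, SE 0.13, adjusted p = 0.0019; at most 0.0229), with -1.61, -1.44 and -1.84 per number. Pseudogenes or other transcripts share 1.99% of its read-length windows. Prkar1a, for a regulatory subunit of protein kinase A, the kinase that holds GLI proteins in check, had 458, 466 and 463 CPM in shLuc and 266, 286 and 287 CPM in shHdac2. Its change was smaller but the spread was narrow (log2 -0.72, SE 0.07, adjusted p = 0.00281; at most 0.0328; per number -0.78, -0.70 and -0.69). Rd3, for a regulator of guanylate cyclase first known from the retina, was low in shLuc at 6.27, 5.94 and 4.67 CPM and reached 18.3, 20.8 and 18.3 CPM in shHdac2. Rd3 rose 3.4-fold (log2 1.76, SE 0.16, adjusted p = 0.00236; at most 0.0258; per number 1.53, 1.79 and 1.95).

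Another 2 of these genes lie outside the rule by which genes were named and were chosen after their values were seen. Snx10, for a sorting nexin of endosomes, fell from 69.6 ± 6.93 to 33.9 ± 0.821 CPM (log2 -1.04, adjusted p = 0.00208, at most 0.0229 without 1 library). Sgcb, for beta-sarcoglycan, fell from 57.7 ± 0.282 to 30.6 ± 2.32 CPM (log2 -0.91, adjusted p = 0.00218, at most 0.0258). Both had 3 effects of the same sign per number: -1.16, -1.09 and -0.83 for Snx10 and -0.80, -0.93 and -1.02 for Sgcb.

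Of the 38 called genes named by the rule, 32 lost their call without some library. Each of these 32 lost it without shLuc replicate 2, and all but Dcpp1 lost it without shLuc replicate 1 and without shHdac2 replicate 2. Without shHdac2 replicate 1 the calls of 30 of the 38 were lost, with Dcpp1 and Cntnap1 kept beside the 6 stable ones. Without shHdac2 replicate 3, 18 were lost, and without shLuc replicate 3 none was. With the 6 libraries alone 29 of the 38 lost their call (adjusted p from 0.0535 to 0.131), and Dcpp1, Mir6236 and Lars2 kept it beside the 6 stable genes. The highest adjusted p over the 6 fits that leave out a library is given with each gene below.

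**Figure D3:**
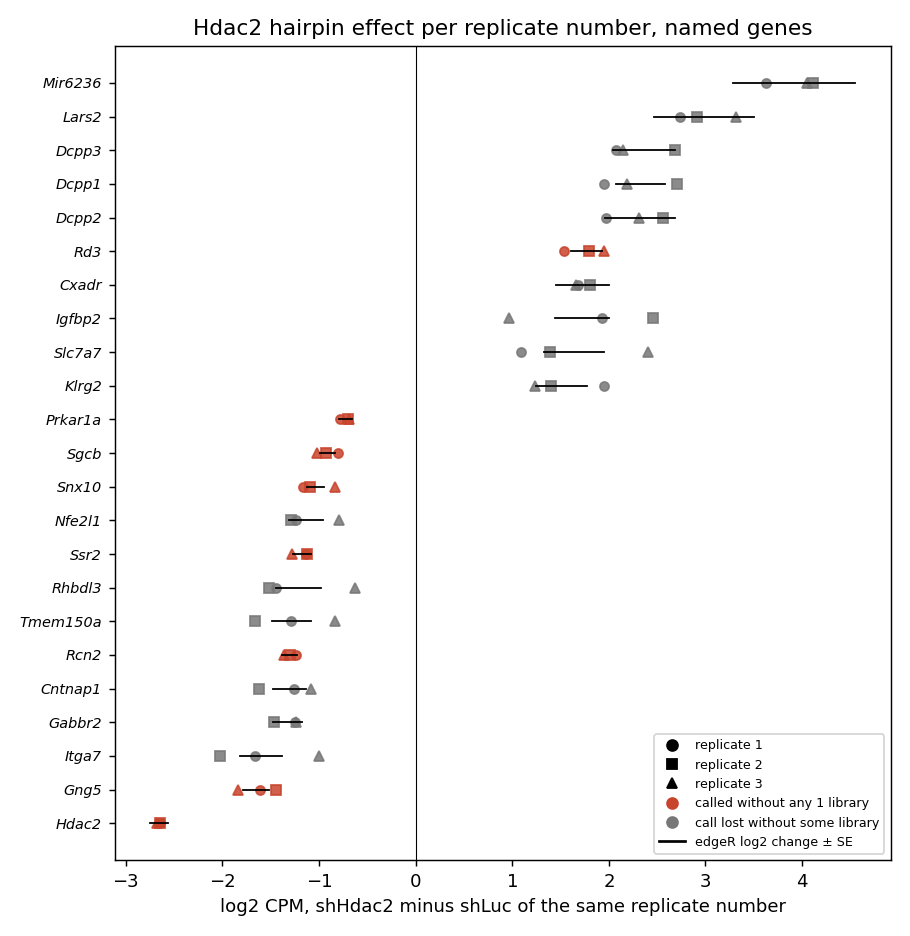
Log2 effect of the Hdac2 hairpin (x axis, shHdac2 minus shLuc library of the same number, log2 CPM) for genes with the largest changes and genes that stayed called without any 1 library (y axis); symbols mark the number, black bars the edgeR log2 change ± SE, red the genes that stayed called. Each gene has all 3 numbers on the same side of 0, which follows from libraries that do not overlap between the groups. Hdac2 has them at -2.65, -2.64 and -2.67.

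Among called protein-coding genes averaging 5 CPM or more, the largest rises beside Lars2, described below, were in 3 neighbouring genes of 1 family. Dcpp1, Dcpp2 and Dcpp3 encode demilune cell and parotid proteins, secreted proteins known from salivary glands. Their starts lie within 36.6 kb on chromosome 17. Because the genes moved together, the 250 bases before each start (RefSeq, GRCm38.p6, plus strand) are shown, with the letters TATAA in capitals where they lie 40 to 11 bases before the start.
Dcpp1, chr17:23880626-23880875: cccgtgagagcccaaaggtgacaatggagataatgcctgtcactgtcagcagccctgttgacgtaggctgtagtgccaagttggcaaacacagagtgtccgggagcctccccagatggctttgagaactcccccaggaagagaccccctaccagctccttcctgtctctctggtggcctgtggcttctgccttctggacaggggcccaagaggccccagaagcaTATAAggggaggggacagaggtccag
Dcpp2, chr17:23898472-23898721: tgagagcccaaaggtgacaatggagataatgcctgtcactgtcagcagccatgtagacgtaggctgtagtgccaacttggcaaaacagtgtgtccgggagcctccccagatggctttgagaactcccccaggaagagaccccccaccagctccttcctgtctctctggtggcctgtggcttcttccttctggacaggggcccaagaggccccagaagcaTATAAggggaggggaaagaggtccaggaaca
Dcpp3, chr17:23917208-23917457: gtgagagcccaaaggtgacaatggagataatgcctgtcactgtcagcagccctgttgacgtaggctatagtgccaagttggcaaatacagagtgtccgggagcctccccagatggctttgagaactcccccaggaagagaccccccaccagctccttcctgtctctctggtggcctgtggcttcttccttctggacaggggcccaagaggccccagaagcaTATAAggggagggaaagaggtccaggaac
These stretches are near copies, with 93.3% (Dcpp1 and Dcpp2), 94.9% (Dcpp1 and Dcpp3) and 96.4% (Dcpp2 and Dcpp3) identical aligned positions. TATAA on the gene's strand starts 26, 31 and 29 bases before the start of Dcpp1, Dcpp2 and Dcpp3, against 3.79% of 32851 promoter windows that hold it at that distance.

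Dcpp1 had 12, 12 and 10.6 CPM in shLuc and 46.5, 78.6 and 48.8 CPM in shHdac2, and rose 5.02-fold (log2 2.33, SE 0.26, adjusted p = 0.00804; at most 0.0508 without 1 library; per number 1.95, 2.70 and 2.19). Dcpp3 went from 14, 15.1 and 9.27 to 59, 97.1 and 41.4 CPM, a rise of 5.15-fold (log2 2.37, SE 0.32, adjusted p = 0.0146; at most 0.077; per number 2.07, 2.68 and 2.15). Dcpp2 went from 11.8, 13.2 and 6.43 to 46.4, 78.6 and 32.1 CPM, a rise of 4.99-fold (log2 2.32, SE 0.36, adjusted p = 0.0209; at most 0.0899; per number 1.97, 2.56 and 2.31). In all 3 genes shHdac2 replicate 2 was the highest library. The transcripts share 34.8%, 32.4% and 37.5% of their read-length windows with each other (Dcpp1, Dcpp2, Dcpp3), so the split of reads between them is uncertain and the 3 rises are not independent. With the Hdac1 hairpin Dcpp1 also rose (log2 1.54, adjusted p = 0.033), Dcpp2 and Dcpp3 had 1.27 and 1.46 (adjusted p = 0.17 and 0.085), and the direct comparison of both hairpins called none of them (adjusted p = 0.156, 0.186 and 0.2).

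The rule for naming takes called genes averaging 5 CPM or more, and among these the next largest rises were in Rd3, given above, Cxadr, Igfbp2, Slc7a7 and Klrg2. Cxadr, the coxsackievirus and adenovirus receptor of cell junctions, had 30.9, 30.8 and 19 CPM in shLuc and 99.5, 108 and 60.2 CPM in shHdac2. Number 3 was the lowest in both groups, and the effect was alike in all numbers (1.68, 1.80 and 1.66). It rose 3.31-fold (log2 1.73, SE 0.28, adjusted p = 0.0221; at most 0.117). Igfbp2, for a binding protein of insulin-like growth factors, had 40.8, 39.1 and 80.6 CPM and 155, 216 and 158 CPM (log2 1.72, SE 0.28, adjusted p = 0.024; at most 0.119). Here shLuc replicate 3 was the highest control, and the effect in number 3 was 0.97 against 1.92 and 2.46 in numbers 1 and 2. Slc7a7, an exporter of cationic amino acids, rose from 2.87 ± 0.731 to 8.95 ± 2 CPM (log2 1.64, adjusted p = 0.0382, at most 0.137; per number 1.09, 1.39 and 2.40). With limma-voom Slc7a7 was not called (adjusted p = 0.0734). Klrg2, for a lectin-like receptor, rose from 3.1 ± 0.867 to 8.85 ± 0.639 CPM (log2 1.51, adjusted p = 0.0297, at most 0.145; per number 1.95, 1.40 and 1.24).

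Of the named genes, the rows of Mir6236 and Lars2 had the largest rises. Mir6236 is listed with a mature microRNA whose sequence (RefSeq, GRCm38.p6) is shown because the row leads the comparison, with the seed, bases 2 to 8, in capitals.
mmu-miR-6236: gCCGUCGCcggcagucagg
The libraries were made from polyadenylated RNA, so the row counts reads over the gene and not this 19-base RNA. Mir6236 had 49.6, 31.9 and 42.6 CPM in shLuc and 613, 555 and 704 CPM in shHdac2 (log2 3.92, SE 0.63, adjusted p = 0.0229; at most 0.114; per number 3.63, 4.12 and 4.05). Lars2, for mitochondrial leucyl-tRNA synthetase, had 137, 107 and 104 CPM and 916, 803 and 1044 CPM (log2 2.99, SE 0.52, adjusted p = 0.0297; at most 0.121; per number 2.74, 2.91 and 3.32). With the Hdac1 hairpin they were high in replicates 2 and 3 and nearer to the controls, though above them, in replicate 1: Mir6236 had 88.6, 581 and 691 CPM and Lars2 had 187, 864 and 1049 CPM. Against shLuc, Mir6236 passed the test there (log2 3.45, adjusted p = 0.0484) and Lars2 did not (2.59, 0.0593), and the direct comparison of both hairpins called neither (adjusted p = 0.799 and 0.799). The row of Rn45s, the ribosomal RNA precursor, had 789, 660.4 and 603 CPM in shLuc and 1167, 1147 and 1614 CPM in shHdac2 (log2 0.94, adjusted p = 0.127). Its groups did not overlap either, and the part of ribosomal RNA reads in the Mir6236 and Lars2 values was not tested.

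Among called genes averaging 5 CPM or more, those that fell most after Hdac2 and Gng5 were Itga7, Gabbr2, Cntnap1, Rcn2 and Tmem150a. Some called genes of lower level fell by as much, such as Bmp3 (log2 -1.72). Itga7, for a laminin-binding integrin subunit, had 111, 103 and 59.7 CPM in shLuc and 35, 25.1 and 29.9 CPM in shHdac2 (log2 -1.60, SE 0.22, adjusted p = 0.0146; at most 0.0886). shLuc replicate 3 was the lowest control, and the effect per number was -1.66, -2.03 and -0.996. Gabbr2, a subunit of the GABA-B receptor, had 12.6, 12.5 and 11.1 CPM and 5.26, 4.5 and 4.69 CPM (log2 -1.33, SE 0.15, adjusted p = 0.00973; at most 0.0769; per number -1.25, -1.47 and -1.24). Cntnap1, for contactin-associated protein 1 of axon-glia junctions, had 91.9, 79.3 and 73.6 CPM and 38.4, 25.8 and 34.8 CPM (log2 -1.31, SE 0.17, adjusted p = 0.0142; at most 0.0645; per number -1.26, -1.62 and -1.08). For Gabbr2 and Cntnap1 number 2 gave the largest fall and the groups were well apart.

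Nfe2l1, for the transcription factor NRF1 that induces proteasome genes, had 655, 633 and 414 CPM in shLuc and 278, 259 and 239 CPM in shHdac2 (log2 -1.13, SE 0.18, adjusted p = 0.0211; at most 0.119; per number -1.23, -1.29 and -0.79). The shHdac2 libraries were alike, while shLuc replicate 3 was lower than replicates 1 and 2. Tmem150a, for a membrane protein of the phosphatidylinositol 4-kinase complex, fell from 8.46 ± 1.53 to 3.47 ± 0.479 CPM (log2 -1.29, adjusted p = 0.0209, at most 0.117; per number -1.29, -1.66 and -0.84). Rhbdl3, for a rhomboid-like membrane protein, fell from 26.9 ± 4.95 to 11.6 ± 1.83 CPM (log2 -1.21, adjusted p = 0.0386, at most 0.198; per number -1.45, -1.52 and -0.63).

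Of the subunits of HDAC1 and HDAC2 complexes, 1 of 39 tested fell and 38 were not called, against 1.68% of all genes called. The median log2 change was 0.01 (per number 0.08, 0.07 and -0.14). Brms1l, a SIN3 complex subunit, fell to 41.5 ± 0.395 CPM from 62.9 ± 1.44 CPM (log2 -0.60, SE 0.08, adjusted p = 0.0146, at most 0.0882). Its effect hardly varied between numbers (-0.62, -0.59 and -0.58). Sap30l, another SIN3 subunit, had 34.6 ± 0.733 and 28.1 ± 0.464 CPM and was not called (adjusted p = 0.11; per number -0.32, -0.26 and -0.33). None of 20 histone acetyltransferase and BET reader genes was called. Ep300, the acetyltransferase p300, had 119.6 ± 14.3 and 148 ± 9.63 CPM (log2 0.30, adjusted p = 0.174; per number 0.35, 0.55 and 0.02).

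Among 20 hedgehog target genes, 19 were not called, 1 fell and none rose. The share over all genes was 1.03% lower and 0.654% higher, and it is the background for the counts of the lists that follow. The list had a median of -0.18 (per number -0.30, -0.27 and 0.03). Sfrp1, a secreted Wnt inhibitor gene, had 921, 927 and 812 CPM in shLuc and 496, 509.6 and 625 CPM in shHdac2, and fell (log2 -0.71, SE 0.11, adjusted p = 0.0193; at most 0.117; per number -0.89, -0.86 and -0.38). Gli1, the usual readout of the pathway, had 193, 168 and 198 CPM in shLuc and 149.8, 121 and 156 CPM in shHdac2. All 3 knockdown libraries lay below all 3 controls, but the difference did not pass (log2 -0.39, SE 0.11, adjusted p = 0.126; per number -0.36, -0.47 and -0.34). With the replicate block Gli1 was called (adjusted p = 0.0304), and with numbers 1 and 2 summed as well as the block it was not (0.351). Ccnd1, for cyclin D1, had 1054, 1039 and 1144 CPM and 849.9, 859.8 and 832 CPM, again without overlap and not called (log2 -0.35, SE 0.11, adjusted p = 0.162; per number -0.31, -0.27 and -0.46). The hedgehog receptor gene Ptch1 had 112, 104 and 147 CPM and 118, 93 and 221 CPM, with number 3 high in both groups (log2 0.25, adjusted p = 0.818; per number 0.07, -0.16 and 0.59). Neither Hhip, for a hedgehog-binding inhibitor (log2 -0.21, adjusted p = 0.853; per number -0.22, -0.50 and -0.06), nor Mycn (-0.10, 0.814; per number -0.19, -0.28 and 0.12) was called, and both overlapped between the groups.

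Of 24 tested genes of hedgehog signal transduction, 2 fell and none rose, where 1.03% of all genes were lower, and the median was -0.01 (per number -0.05, -0.00 and 0.03). Prkar1a, given above, was the clearer of them. Evc, for a protein at the base of the primary cilium that relays the signal from Smoothened, fell to 25.3 ± 2.14 CPM from 36.1 ± 1.77 CPM (log2 -0.51, SE 0.10, adjusted p = 0.0352, at most 0.185; per number -0.46, -0.56 and -0.53). Without a filter on low counts Evc was not called (adjusted p = 0.062).

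In the cerebellar granule lineage list, 2 of 27 fell and none rose, where 1.03% of all genes were lower, and the median was -0.07 (per number -0.02, 0.07 and -0.20). In bulk RNA fewer cells of a type and less RNA per cell cannot be told apart. Zic4, a zinc finger transcription factor gene, had 68, 67.8 and 80.5 CPM in shLuc and 49.96, 46.5 and 54.5 CPM in shHdac2 (log2 -0.52, SE 0.10, adjusted p = 0.0362; at most 0.193; per number -0.45, -0.55 and -0.56), and was not called without a filter on low counts (adjusted p = 0.0575). Barhl1, a homeobox gene of migrating granule cells, had 55.1, 50.7 and 68.7 CPM and 31, 37.9 and 30.9 CPM (log2 -0.80, SE 0.15, adjusted p = 0.0373; at most 0.178; per number -0.83, -0.42 and -1.15). Number 3 gave its largest fall. Atoh1, the proneural factor that keeps granule progenitors dividing, had 326, 315 and 227 CPM in shLuc and 143, 164 and 136 CPM in shHdac2. Its groups were far apart in level, but it missed the threshold (log2 -0.97, SE 0.21, adjusted p = 0.0592; per number -1.19, -0.94 and -0.74). It was called with the replicate block (adjusted p = 0.00995), with DESeq2 (0.000528) and without a filter on low counts (0.0444), and not with numbers 1 and 2 summed (0.885). With the Hdac1 hairpin the log2 changes against shLuc were -0.63 for Zic4 (adjusted p = 0.0311), -0.82 for Barhl1 (0.0517) and -0.87 for Atoh1 (0.112). The direct comparison of the hairpins called none of the 3 (adjusted p = 0.702, 0.978 and 0.891), and both hairpin comparisons share the shLuc libraries.

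Among 39 tested neuronal differentiation and synapse genes 1 rose and none fell, where 0.654% of all genes were higher, and the median was 0.08 (per number 0.03, 0.10 and 0.19). Syn1, for the synaptic vesicle protein synapsin I, had 28.7, 27.6 and 26.1 CPM in shLuc and 41.3, 44.9 and 39.3 CPM in shHdac2, and rose 1.52-fold (log2 0.61, SE 0.09, adjusted p = 0.0206; at most 0.117; per number 0.52, 0.70 and 0.59). With the Hdac1 hairpin it was not called (log2 -0.22, adjusted p = 0.384), and the hairpins differed directly (log2 0.83, adjusted p = 0.00552). Tubb3, the neuronal beta-tubulin gene, had 92.3 ± 10.8 and 130.4 ± 21.2 CPM and was not called (adjusted p = 0.167; per number 0.43, 0.62 and 0.43), while the replicate block called it (adjusted p = 0.0117). No call fell on the 34 tested targets of REST, a repressor of neuronal genes that recruits CoREST and SIN3. Of these, Chgb, for a secretory granule protein, had 7.9 ± 2.08 and 14.3 ± 3.94 CPM (adjusted p = 0.156; per number 0.91, 0.81 and 0.81).

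Of 26 tested genes that HDAC inhibitors often raise, 2 fell and none rose with the Hdac2 hairpin, against 1.03% and 0.654% of all genes, and the median was -0.04. That median was -0.31 and -0.27 in numbers 1 and 2 and 0.41 in number 3. Cdkn1a, for the cell cycle inhibitor p21 and the best known gene of this kind, had 153, 159 and 111 CPM in shLuc and 69, 56.3 and 88.4 CPM in shHdac2. It fell (log2 -0.99, SE 0.18, adjusted p = 0.0325; at most 0.149), by -1.15 and -1.49 in numbers 1 and 2 and -0.33 in number 3. With quisinostat for 24 h Cdkn1a rose (log2 1.80, adjusted p = 0.00159). Tgfbr2, for a receptor of TGF-beta, fell from 40.5 ± 5.15 to 19.9 ± 3.66 CPM (log2 -1.02, adjusted p = 0.0395, at most 0.198; per number -1.17, -0.97 and -0.95). H1f0, for linker histone H1.0, had 624 ± 102 and 541 ± 6.97 CPM and was not called (adjusted p = 0.439; per number -0.29, -0.39 and 0.10), while it rose with quisinostat at 24 h (log2 1.32, adjusted p = 0.00152).

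Cdkn1a is also a p53 target, and of 26 tested p53 targets 2 fell and none rose, where 1.03% of all genes were lower. The median was -0.04 (per number -0.06, 0.04 and 0.01). The other was Eda2r, a death-domain receptor gene, which fell from 124 ± 2.99 to 84.1 ± 10.4 CPM (log2 -0.56, adjusted p = 0.0277, at most 0.151; per number -0.63, -0.72 and -0.35). In the list of BCL2 family and caspase genes 2 of 24 rose and none fell, where 0.654% of all genes were higher, and the median was -0.01 (per number 0.01, 0.11 and -0.06). Apaf1, the scaffold of the apoptosome, had 44.8, 44 and 49.96 CPM in shLuc and 64.4, 68.7 and 68.5 CPM in shHdac2 (log2 0.54, SE 0.08, adjusted p = 0.019; at most 0.11; per number 0.52, 0.64 and 0.45). Hrk, a BH3-only cell death gene, went from 181 ± 9.12 to 271 ± 27.4 CPM (log2 0.58, adjusted p = 0.0484, at most 0.19; per number 0.45, 0.62 and 0.64). Without a filter on low counts Hrk was not called (adjusted p = 0.0531). The cell cycle lists had no call: none of 42 G1/S and replication genes (median -0.03) and none of 36 G2/M genes (0.02) passed. For the cyclin-dependent kinase inhibitor gene Cdkn1b, the values were 237 ± 8.52 and 187 ± 9.75 CPM (adjusted p = 0.0824; per number -0.30, -0.48 and -0.24), and the replicate block called it as lower (adjusted p = 0.0424).

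The list of ATF4 and unfolded protein stress genes had the lowest median among the lists of cellular pathways, -0.32 (per number -0.11, -0.30 and -0.55), and 2 of its 30 members fell, where 1.03% of all genes did. At an unadjusted p under 0.05 there were 12 members, all lower, where 15.9% of all genes tested were under it and 8.18% were under it and lower. Ddit3, for the stress transcription factor CHOP, had 31.5, 31 and 34.4 CPM in shLuc and 16.4, 11.5 and 19.7 CPM in shHdac2 (log2 -1.03, SE 0.18, adjusted p = 0.0297; at most 0.128; per number -0.94, -1.42 and -0.80). Vldlr, a lipoprotein receptor gene that ATF4 is known to induce, had 248, 235 and 295 CPM and 123, 110.5 and 155 CPM (log2 -1.001, SE 0.15, adjusted p = 0.019; at most 0.108). Both groups of libraries were well apart for Vldlr, and the effect was alike per number (-1.01, -1.09 and -0.93). Vldlr differed between the hairpins directly (log2 -1.26, adjusted p = 0.00596), and Ddit3 did not pass that test (-0.41, 0.333).

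Cholesterol synthesis genes had no call among 21 tested, although 9 had an unadjusted p under 0.05, all higher, as 7.68% of all genes tested were. The list median was 0.27, at 0.29 and 0.44 in numbers 1 and 2 and -0.10 in number 3. Srebf2, for the transcription factor of this pathway, had 383, 358 and 399 CPM in shLuc and 511, 532 and 441 CPM in shHdac2 (log2 0.38, adjusted p = 0.0921; per number 0.42, 0.57 and 0.14), and Dhcr7, for its last enzyme, had 87.9 ± 9.17 and 126 ± 25.9 CPM (adjusted p = 0.124; per number 0.48, 0.67 and 0.37). The replicate block called Dhcr7 as higher (adjusted p = 0.0242). In the Notch and Wnt list 2 of 38 fell, Sfrp1 and the Notch ligand gene Dll1, where 1.03% of all genes were lower, and the median was -0.12 (per number -0.09, -0.02 and 0.21). Dll1 went from 17.9, 16.6 and 15.5 CPM to 8.9, 8.06 and 9.58 CPM (log2 -0.91, SE 0.14, adjusted p = 0.0217; at most 0.132; per number -1.005, -1.04 and -0.69). It also fell with the Hdac1 hairpin (log2 -0.94, adjusted p = 0.0309).

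Single calls fell on 3 further lists. Robo2, an axon guidance receptor gene, fell from 125 ± 7.04 to 86.4 ± 9.06 CPM (log2 -0.53, adjusted p = 0.0297, at most 0.119; per number -0.76, -0.51 and -0.33), 1 of 33 axon guidance and adhesion genes. Sdhb, for a subunit of succinate dehydrogenase, fell from 142 ± 3.29 to 109 ± 3.19 CPM (log2 -0.38, adjusted p = 0.027, at most 0.149; per number -0.44, -0.38 and -0.32), 1 of 44 respiratory chain genes, whose median was -0.16 (per number -0.09, -0.15 and -0.20). Without a filter on low counts Sdhb was not called (adjusted p = 0.0513). Eif2ak2, for the double-stranded RNA sensor PKR, rose from 32.9 ± 0.961 to 48.2 ± 1.93 CPM (log2 0.55, adjusted p = 0.0209, at most 0.117; per number 0.53, 0.58 and 0.55), 1 of 25 interferon response genes. The median of that list was 0.02 and -0.18 in numbers 1 and 2 and 0.88 in number 3. The remaining lists had no call: 16 MHC class I genes, 31 immediate-early genes, 32 ribosome biogenesis and MYC targets, 30 recombination and checkpoint genes, 48 ribosomal protein genes and 16 replication-dependent histone genes.

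**Figure D4:**
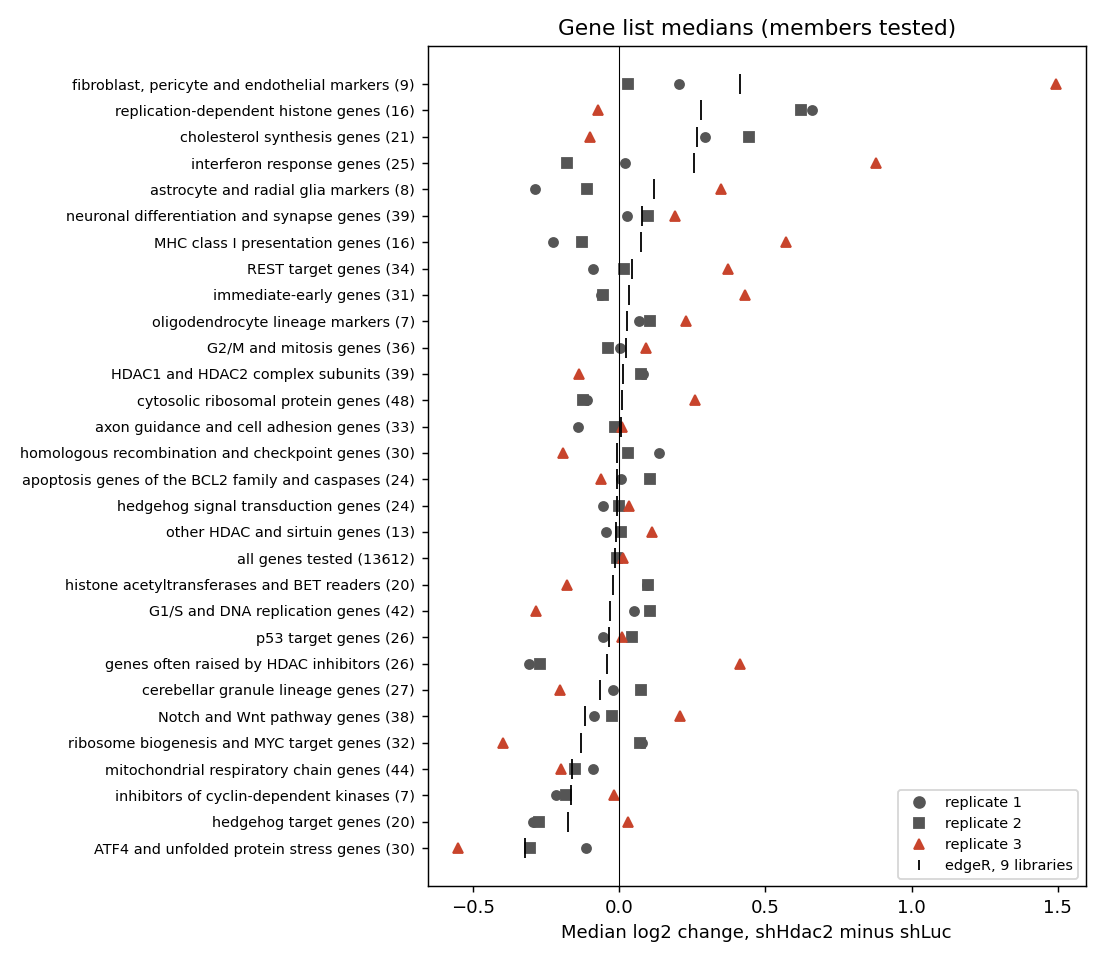
Median log2 change of each gene list (y axis, with the number of members tested) in shHdac2 against shLuc (x axis); grey circles and squares are numbers 1 and 2, red triangles number 3 and black bars the fit over 9 libraries. Numbers 1 and 2 lie close together in most lists, and number 3 stands apart from them in the interferon list (0.88 against 0.02 and -0.18) and the list of genes often raised by HDAC inhibitors (0.41 against -0.31 and -0.27).

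No tested marker of another cell type was called in shHdac2. Of 13 fibroblast, pericyte and endothelial markers 6 were under 1 CPM in every library, Col1a2 and Pecam1 among them, and the summed level was 5.80 to 25.8 CPM in shLuc and 17.5 to 26.6 CPM in shHdac2. The lowest sum in each group was that of number 3. Col3a1 had 9.01, 7.56 and 1.32 CPM in shLuc and 10.4, 10.1 and 5.30 CPM in shHdac2. Cdh5 had 4.63, 4.59 and 0.857 CPM and 4.57, 4.82 and 6.10 CPM. The median log2 change of the 9 members tested was 0.20 and 0.03 in numbers 1 and 2 and 1.49 in number 3, where the control was low. Of 11 oligodendrocyte lineage markers 5, with Sox10 and Olig2, were under 1 CPM throughout, and the sum was 115 to 149 CPM in shLuc and 109 to 269 CPM in shHdac2. Several of its members were high in number 3 of both groups: Olig1 had 8.54, 10.5 and 55.3 CPM in shLuc and 13.3, 16.7 and 129.6 CPM in shHdac2, and Mbp had 0.210, 0.386 and 21.96 CPM and 1.40, 1.76 and 12.9 CPM. Pdgfra had 13.0, 13.6 and 28.3 CPM and 13.6, 13.8 and 33.2 CPM. The replicate block called Olig1 as higher in shHdac2 (adjusted p = 0.0286). Of 11 astrocyte and radial glia markers 3, Gja1, Aldh1l1 and Aqp4, were under 1 CPM throughout, and the sum was 1246 to 1583 CPM in shLuc and 1187 to 1527 CPM in shHdac2. Gfap had 16.4, 16.2 and 15.1 CPM in shLuc and 6.56, 6.11 and 29.8 CPM in shHdac2, and S100b had 27.6, 28.0 and 26.7 CPM and 14.7, 18.4 and 57.1 CPM, both highest in shHdac2 replicate 3. The part of such cells or of this library in the number 3 values was not tested.

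The effect of the Hdac2 hairpin in number 3 was unlike that in numbers 1 and 2 over much of the transcriptome, in these libraries. Across the 13612 genes the effects of numbers 1 and 2 had a Pearson correlation of 0.77, those of 1 and 3 of 0.14 and those of 2 and 3 of 0.13. These are descriptions across genes, which are not independent replicates. Changes of 2-fold or more were seen in 4.33% of genes in number 1, 6.33% in number 2 and 10.8% in number 3. A fit of the difference, number 3 against numbers 1 and 2, put 5632 genes (41.4%) under an adjusted p of 0.05, 2853 of them (21%) more positive and 2779 (20.4%) more negative in number 3. Each group has 1 library numbered 3, and the error comes only from the spread between numbers 1 and 2. The count therefore says how far 1 pair of libraries lies from 2 near copies, and it does not show a difference that would be seen in replicates.

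The genes named from this fit changed sign between numbers, and are given as values. Sepp1, for the selenium carrier selenoprotein P, had 44.2, 52.7 and 6.78 CPM in shLuc and 16.5, 13.6 and 32.3 CPM in shHdac2, so it was lower with the hairpin in numbers 1 and 2 and higher in number 3 (-1.42, -1.95 and 2.24; difference 3.94 in log2). Pltp, for phospholipid transfer protein, showed the same order, with 34.2, 33.8 and 13.7 CPM and 20.5, 20.9 and 59.3 CPM (difference 2.82 in log2). In the other direction, Gpm6a, a neuronal membrane glycoprotein gene, had 64.8, 64.9 and 213 CPM in shLuc and 161, 159 and 151 CPM in shHdac2. There shLuc replicate 3 stood above every other library, and the 3 shHdac2 libraries were alike (difference -1.79 in log2).

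For Prpf4b, a kinase gene of the splicing machinery, shLuc replicate 3 was again the library apart, at 90.0, 89.8 and 192 CPM in shLuc against 97.9, 96.1 and 108 CPM in shHdac2 (difference -0.93 in log2). Baz1a, a chromatin remodelling subunit gene, had 70.9, 71.2 and 123 CPM and 111, 115 and 89.7 CPM (difference -1.12 in log2). None of these 5 genes was called in the comparison over all numbers. Among the genes that were called, 17 of the 89 that were higher and 36 of the 140 that were lower were among the 5632. Over all genes tested the share was 41.4%. All called genes had the same sign in all 3 numbers. A gene passes the group test more readily when its numbers agree, so the low share and the shared sign are partly built in.

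**Figure D5:**
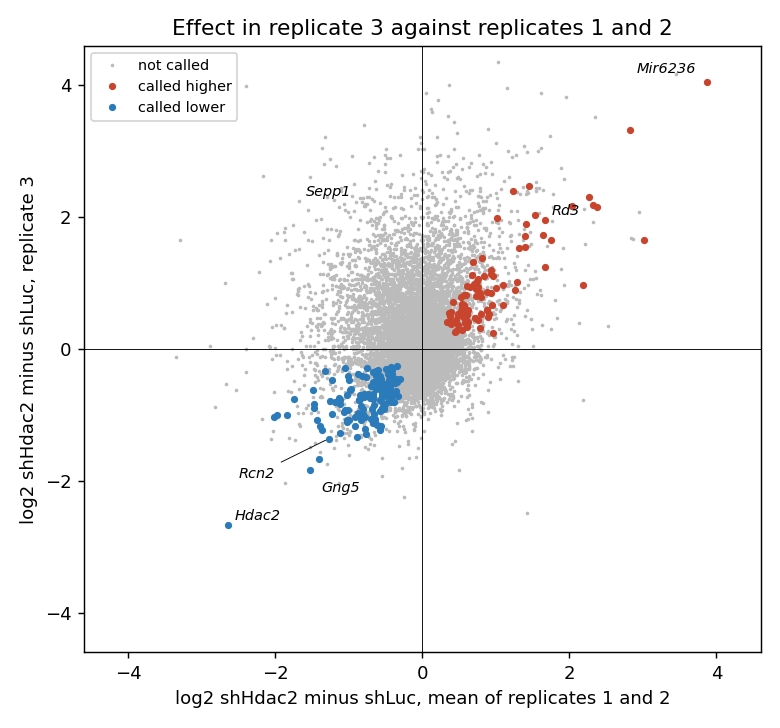
Log2 effect of the Hdac2 hairpin per gene in number 3 (y axis) against the mean of numbers 1 and 2 (x axis); grey points were not called, red were called higher and blue lower in shHdac2, and 2 genes lie outside the axes. Called genes lie in the quadrants of equal sign, which follows from libraries that do not overlap between the groups. Hdac2 is among them near -2.7 on both axes, while Sepp1 lies on the opposite side of 0 in number 3.

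Set directly against the Hdac1 hairpin, the Hdac2 hairpin differed in 280 genes (2.06%), 159 higher (1.17%) and 121 lower (0.889%) in shHdac2. Of the 89 genes higher than in shLuc, 25 were also higher than in shHdac1, 63 were not called and 1 was lower. Of the 140 lower genes, 78 were also lower than in shHdac1, 61 were not called and 1 was higher. These genes were called from the same shHdac2 libraries, which the direct comparison uses again. Agreement in direction is therefore partly built in, also for the genes named next. Rcn2 (log2 -1.18, adjusted p = 0.000322), Ssr2 (-1.31, 0.000322), Gng5 (-1.73, 0.000638), Prkar1a (-0.76, 0.00155) and Rd3 (2.31, 0.000347) all differed between the hairpins. Cxadr (1.61, 0.022), Nfe2l1 (-0.87, 0.0434), Tmem150a (-1.06, 0.0299), Brms1l (-0.50, 0.0188) and Eif2ak2 (0.41, 0.0479) did as well. Itga7 (-0.15, 0.845), Gabbr2 (-0.38, 0.287) and Rhbdl3 (0.62, 0.25) did not pass, and all 3 fell with the Hdac1 hairpin (log2 -1.46, -0.95 and -1.83 against shLuc, adjusted p = 0.0277, 0.0324 and 0.0157). The Hdac1 hairpin itself called 102 genes against the same shLuc libraries (0.749%).

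Quisinostat, which inhibits several HDACs at once, called 33.1% of the genes tested after 24 h (2613 or 18.1% higher and 2178 or 15.1% lower against DMSO), in libraries that the hairpin comparison does not use. Of the 89 genes higher in shHdac2, 16 were higher and 4 lower with the drug, 67 were not called and 2 were not tested there. Of the 140 lower genes, 36 were lower and 6 higher with the drug and 98 were not called. Seen from the drug, 0.732% of the 2186 genes that it raised and that were tested in the hairpin fit were also higher in shHdac2, against 0.654% of all genes, and 1.67% of the 2159 such genes that it lowered were lower, against 1.03%. The median effect of the hairpin on the genes raised by the drug was 0.10, but it was -0.05 and -0.04 in numbers 1 and 2 and 0.52 in number 3. For the genes lowered by the drug it was -0.07, and 0.04, 0.03 and -0.25 per number. After 2 h the drug raised 9.11% and lowered 4.59% of genes, and 0.553% of those raised were higher and 1.06% of those lowered were lower in shHdac2.

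Named genes moved both ways with the drug. Klrg2 (log2 3.22, adjusted p = 0.000671), Igfbp2 (2.55, 0.00522), Cxadr (1.96, 0.0166) and Syn1 (0.92, 0.00713) rose with quisinostat at 24 h as they did with the hairpin. Barhl1 (-1.62, 0.00183), Zic4 (-1.22, 0.000857), Eda2r (-1.05, 0.000826), Rcn2 (-1.03, 0.0059), Vldlr (-0.95, 0.0171), Brms1l (-0.87, 0.00409) and Gng5 (-0.85, 0.0394) fell with both. Besides Cdkn1a, the named genes called in opposite directions were Tmem150a, which rose with the drug (1.16, 0.00605), and Hrk, which fell (-0.77, 0.00932). Ssr2 (0.34, 0.315), Prkar1a (-0.01, 0.969) and Rd3 (-0.84, 0.188) were not called with the drug. Hdac2 itself was not called after 24 h of the drug (-0.30, 0.168).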

How the data were processed

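The authors deposited raw read counts per gene symbol. The submitters' processing notes name STAR 2.5.1b and the build mm9. Per the labels' protocols, 500 ng of total RNA per library went into a TruSeq Stranded mRNA kit, and single 75-base reads were sequenced in 2 runs. The sources used here do not give the annotation, the strand counted or how reads with several alignments were handled. The table holds 24047 genes. In the 6 libraries 14 rows with date-like names hold 0.274% of counts, and they were tested but not named.

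The 9 shRNA libraries were fitted with edgeR 4.0.16 (R 4.3.3): filterByExpr (minimum count 10, minimum total 15), TMM scaling, group as the only term, two-sided quasi-likelihood tests, Benjamini-Hochberg over 13612 genes, called under 0.05. The 12 drug libraries were fitted apart (14467 genes). Effects per number are differences of log2 CPM with prior count 2. The floor per library is 3 counts and covers counting error only. Alternatives used DESeq2 1.42.0, limma 3.58.1 (voom), other scalings, filters and library sets, and a replicate block. Residuals of shLuc and shHdac2 libraries with the same number correlated at 0.46, 0.25 and 0.46, all above the minimum of 0.1 at which numbers were taken to pair libraries. Numbers 1 and 2 correlated across as well: shLuc 1 with shHdac2 2 at 0.24 and shLuc 2 with shHdac2 1 at 0.42. The latter lies above the 0.25 of 2 with 2. These values therefore set number 3 apart and cannot tell whether 1 pairs with 1 and 2 with 2. The labels give no source of the pairing. Read-length windows were counted in GENCODE M21 transcripts.

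Named genes are the class I HDAC genes, the 10 called genes with the largest change each way (mean of at least 5 CPM, no overlap between the groups), 2 members of each list with the lowest p, 3 genes each way for the difference of number 3, and H1f0, Cdkn1a, Atoh1, Ccnd1, Mycn, Hhip, Ptch1 and Gli1. Placeholder symbols were passed over, and a few results are not reported here. The members, lists and rule were chosen with earlier results of these data known.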

Additional observations from a re-analysis of the deposited data

Results flagged for a closer look

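In a fit of the difference between the hairpin effect of number 3 and that of numbers 1 and 2, 5632 genes had an adjusted p under 0.05. That fit sets 1 pair of libraries against 2 near copies, whose spread is its only error, so it describes these libraries and does not show a replicated difference. Of the 90 genes named by the rule, 33 were among them (not all are listed here), and 23 of these had the same sign in all 3 numbers. Values here are the log2 effect in number 3 minus that in numbers 1 and 2.

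Cell surface, secreted and transport genes with a more positive effect in number 3 were Sepp1 (3.94), Pltp (2.82), Slc7a7 (1.19), Rhbdl3 (0.85), Itga7 (0.83), Epha4 (0.64), Sfrp1 (0.50), Slc1a3 (0.34) and Eda2r (0.33). The same held for the regulators Maff (1.30), Cdkn1a (0.98), Olig1 (0.58), Nfe2l1 (0.47), Mycn (0.35) and Atoh1 (0.32). It held also for the hedgehog receptor gene Ptch1 (0.62), the MHC class I partner gene B2m (0.68), the histone genes Hist2h2be (0.52) and H1f0 (0.44) and the ribosomal protein gene Rps20 (0.50).

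A more negative effect in number 3 was found for the membrane protein gene Gpm6a (-1.79), the secreted protein gene Igfbp2 (-1.24) and the synaptic gene Cplx1 (-0.74). Chromatin and splicing genes with this sign were Baz1a (-1.12), Prpf4b (-0.93), Ep300 (-0.43) and Kat5 (-0.31). Genes of replication and the cell cycle with this sign were Mcm4 (-0.72), Chek1 (-0.49) and Ccnf (-0.35), and the transcription factor genes were Barhl1 (-0.53) and Srebf2 (-0.35).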

How the results depend on the processing

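Counts of called genes, 89 higher and 140 lower, moved by over 1.5 times in several fits. They were 9 and 10 with the 6 libraries alone, 411 and 481 with DESeq2, 693 and 731 with number 3 as a batch term, and 3083 and 2969 within numbers 1 and 2. With the replicate block, the fit for pairing by number, they were 382 and 419, and all 229 calls were kept. With numbers 1 and 2 summed, an alternative added after the data were seen, they were 0 and 1, and with the block as well 0 and 1. Leaving out 1 library gave 2 to 588 higher and 8 to 624 lower. The cause was not tested. Other scalings, a robust fit, limma-voom, no filter and a filter at 1 CPM gave 187 to 248 calls. Scaling by library totals moved the Hdac2 effect in numbers 2 and 3 to -2.68 and -2.64. Pltp, not called over all numbers (0.30), was reversed to -0.70 within numbers 1 and 2.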

Other observations

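Calls were spread unevenly over the range of expression. With the genes tested cut into 10 bins of mean level, 0.22% were called higher and 0.0734% lower in the lowest bin (1362 genes, median 0.599 CPM). In the highest bin (median 267 CPM) the shares were 1.1% and 1.76%, and in bin 7 (median 56.5 CPM) they were 1.1% and 1.4%.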
